A study of Mus musculus with 12 samples.

Results

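The production and removal of reactive oxygen in the challenged aorta was examined through 9 genes, of which 6 encode subunits of NADPH oxidases (Cyba, Cybb, Ncf1, Ncf4, Nox1 and Nox4) and 3 encode antioxidant enzymes (Sod2, Sod3 and Hmox1). They were found by the gene names in the scanner output, which assigned 14 of 55681 probes to them. All 9 had a probe that passed the filter on dim signals, and they were 9 of the 22765 genes tested. RNA came from the aorta of male mice, whose age is not given in the sources used here, labelled as of mixed 129S5/SvEvBrd, C57BL6 and SJL strain, and was hybridised to 12 one-colour microarrays, 3 in each of 4 groups. Every mouse was Socs3 fl/fl, an allele crossed back to C57BL/6J over 3 generations. The mice labelled smSocs3-KO also carried SM22-Cre, driven by a smooth muscle promoter, and the WT mice were littermates without Cre. Which cells lost Socs3 was not tested. Each genotype was sampled before challenge, with no infusion, and at day 3 of BAPN + AngII challenge. Minipumps delivered BAPN at 150 mg/kg/day, which blocks the crosslinking of collagen and elastin, together with the peptide hormone AngII at 1000 ng/kg/min. The labels name the tissue as aorta without a segment or a sort of cells, so that all cells of the wall contributed RNA. Nothing in the labels says that the arrays of a group came from separate animals, and p-values therefore measure the spread between these arrays, which may be technical.

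NADPH oxidases carry electrons across a membrane onto oxygen and so form superoxide. In the phagocyte oxidase, Cybb is the catalytic subunit, Cyba holds it in the membrane, and Ncf1 and Ncf4 are cytosolic subunits that join them on activation together with the GTPase Rac2. Nox1 and Nox4 are catalytic subunits of related oxidases known from vascular smooth muscle, where AngII is a classical stimulus, and Nox4 works with Cyba but without cytosolic subunits. Superoxide dismutases turn superoxide into hydrogen peroxide, Sod2 in mitochondria and Sod3 outside the cell, where the arterial wall is rich in it. Hmox1 is the inducible heme oxygenase, which breaks heme down to biliverdin, iron and carbon monoxide.

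Each value is the signal of a 60-base probe, and 4 of the genes had more than 1 probe. The probes printed here lie in transcribed sequence of Cyba, Nox1, Nox4 and Hmox1, and they are shown because the readings of several probes of these genes are compared. Those of Cyba and Nox4 span 269 and 15021 bases of genome, so they cross introns and can only pair in full with spliced RNA. Positions are those of the array files on mm9, and no base is singled out by capitals.
Cyba A_51_P131800, chr8:124950893-124951161, minus strand: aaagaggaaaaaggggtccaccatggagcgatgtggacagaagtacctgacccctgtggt
Nox4 A_51_P369311, chr7:94472458-94487478, plus strand: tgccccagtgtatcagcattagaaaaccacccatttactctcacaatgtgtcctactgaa
Hmox1 A_55_P2029687, chr8:77620797-77620856, plus strand: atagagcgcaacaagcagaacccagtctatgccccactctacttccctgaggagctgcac
Nox1 A_55_P1997906, chrX:130621740-130621799, minus strand: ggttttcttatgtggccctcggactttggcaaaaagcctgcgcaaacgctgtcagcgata
Nox1 A_51_P364714, chrX:130627582-130627641, minus strand: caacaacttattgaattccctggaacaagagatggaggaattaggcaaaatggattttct
The second probe of Nox1 was not well above background on any of the 12 arrays and was not used. Each gene was represented by its brightest probe on average, which for Nox1 was the first of its 2, and for Cyba, Nox4 and Hmox1 was a probe closer to the 3′ end than those printed. These lay at chr8:124948726-124948785 for Cyba, chr7:94547025-94547084 for Nox4 and chr8:77624207-77624266 for Hmox1. The remaining genes had 1 probe each, at chrX:9013216-9013275 for Cybb, chr5:134696380-134696439 for Ncf1, chr15:78092903-78092962 for Ncf4, chr17:13208074-13208133 for Sod2 and chr5:52760685-52760744 for Sod3.

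Signals are given as log2 of the processed intensity minus the 75th percentile of the same array, on which 1 unit is a doubling, so a value of 0 is as bright as the 75th percentile. Such levels can be set against each other for 1 probe across arrays, but not between probes. Within groups the arrays correlated with r between 0.964 and 0.992 across genes, and between 54.4% and 60.3% of probes were well above background. WT replicate 4 at day 3 stood apart from the other day 3 arrays of WT in genes studied here, such as Ncf1, Ncf4 and Hmox1. Its lowest correlation with those arrays was 0.964, which is not the lowest within a group, so this measure did not single it out. Results that rest on it are also given without it. Slide 1 carried the 6 WT arrays along with smSocs3-KO replicate 1 before challenge, and slide 2 carried the remaining 5. Socs3 itself was not lower under the smSocs3-KO label (0.24 to 1.46 before challenge and 2.28 to 4.13 at day 3, against 0.30 to 0.75 and 0.64 to 2.30 in WT), so genotype directions refer to the labels.

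The cytosolic subunits of the phagocyte oxidase rose with the challenge. Ncf1, which organises the complex, was measured before challenge at -1.39, -1.41 and -1.65 in WT (replicates 1, 2 and 3), and at day 3 at 0.63, 0.03 and -1.39 (replicates 1, 3 and 4). On the arrays labelled smSocs3-KO its signal was -1.15, -1.53 and -1.36 before challenge (replicates 1, 3 and 4), and 0.75, 0.65 and 0.98 at day 3 (replicates 2, 3 and 5). Values of the other genes follow the same order of replicates. Of the 6 arrays at day 3, 5 lay above all 6 arrays before challenge, and the other one was WT replicate 4. Averaged over both genotypes, Ncf1 rose by 1.69 (SE 0.28, a 3.22-fold change, limma adjusted p = 0.00631). It rose by 2.14 under the smSocs3-KO label (SE 0.40, 4.40-fold, limma adjusted p = 0.0294), whereas the WT difference of 1.24 did not pass (SE 0.40, limma adjusted p = 0.0840). In these bulk samples, more cells of a type and more RNA per cell cannot be told apart.

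Ncf4, a regulatory cytosolic subunit, had the same order of groups. It read 0.18, 0.10 and 0.04 in WT before challenge and 2.49, 2.04 and 0.03 at day 3, where the low value was again replicate 4. With the smSocs3-KO label it read 0.07, 0.93 and 1.04 before challenge and 3.08, 2.60 and 3.22 at day 3, without overlap. The mean response was 1.85 (SE 0.37, 3.60-fold, limma adjusted p = 0.00980), and the response under the smSocs3-KO label was 2.29 (SE 0.52, 4.88-fold, limma adjusted p = 0.0495). In WT the difference was 1.41 (SE 0.52, limma adjusted p = 0.122). Without WT replicate 4 at day 3, the WT differences of Ncf1 and Ncf4 were 1.81 and 2.16 and passed the threshold (limma adjusted p = 0.000868 and 0.00215). Without WT replicate 1 at day 3 they were 0.81 and 0.93 and did not pass. Replicate 4 was the low array for both genes, so its omission gives no support to a rise.

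The membrane subunits changed less. Cyba, the subunit shared by several oxidases, read 4.97, 5.05 and 5.04 in WT before challenge and 5.61, 5.09 and 5.16 at day 3. In the mice labelled smSocs3-KO it read 5.17, 5.14 and 5.13 before challenge and 5.84, 5.62 and 5.69 at day 3. The groups did not overlap under either label, but in WT 2 of the 3 arrays at day 3 exceeded the highest array before challenge by little. The mean response was 0.42 (SE 0.11, 1.34-fold, limma adjusted p = 0.0259), a call that held under 14 of 23 alternative settings and was lost without WT replicate 1 or 2 before challenge, WT replicate 1 at day 3 or smSocs3-KO replicate 2 at day 3. The responses of 0.27 in WT and 0.57 under the smSocs3-KO label did not pass on their own (limma adjusted p = 0.306 and 0.0796). The intron-crossing probe of Cyba gave a mean response of 0.51 (SE 0.19, limma adjusted p = 0.0726), similar in size and not past the threshold.

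Cybb, the catalytic subunit, was dim. Its probe was well above background on 9 of 12 arrays, and the group of smSocs3-KO at day 3, the only one with all 3, let it through the filter. It read -3.07, -4.00 and -4.23 in WT before challenge and -2.84, -3.83 and -4.06 at day 3, which overlapped throughout. The arrays labelled smSocs3-KO gave -4.62, -4.35 and -3.44 before challenge and -2.77, -1.88 and -3.00 at day 3, which did not overlap. The mean response of 0.89 (SE 0.32) missed the threshold (limma adjusted p = 0.0656), as did the difference of 1.59 under the smSocs3-KO label (limma adjusted p = 0.0808). Since the group that is high let Cybb into the test, these p-values give no support to a rise. The same holds for every later comparison of Cybb that uses this group. With normexp background correction the mean response was 0.17, the response under the smSocs3-KO label 0.37, the label difference at day 3 0.28 and the interaction 0.39.

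**Figure D1:**
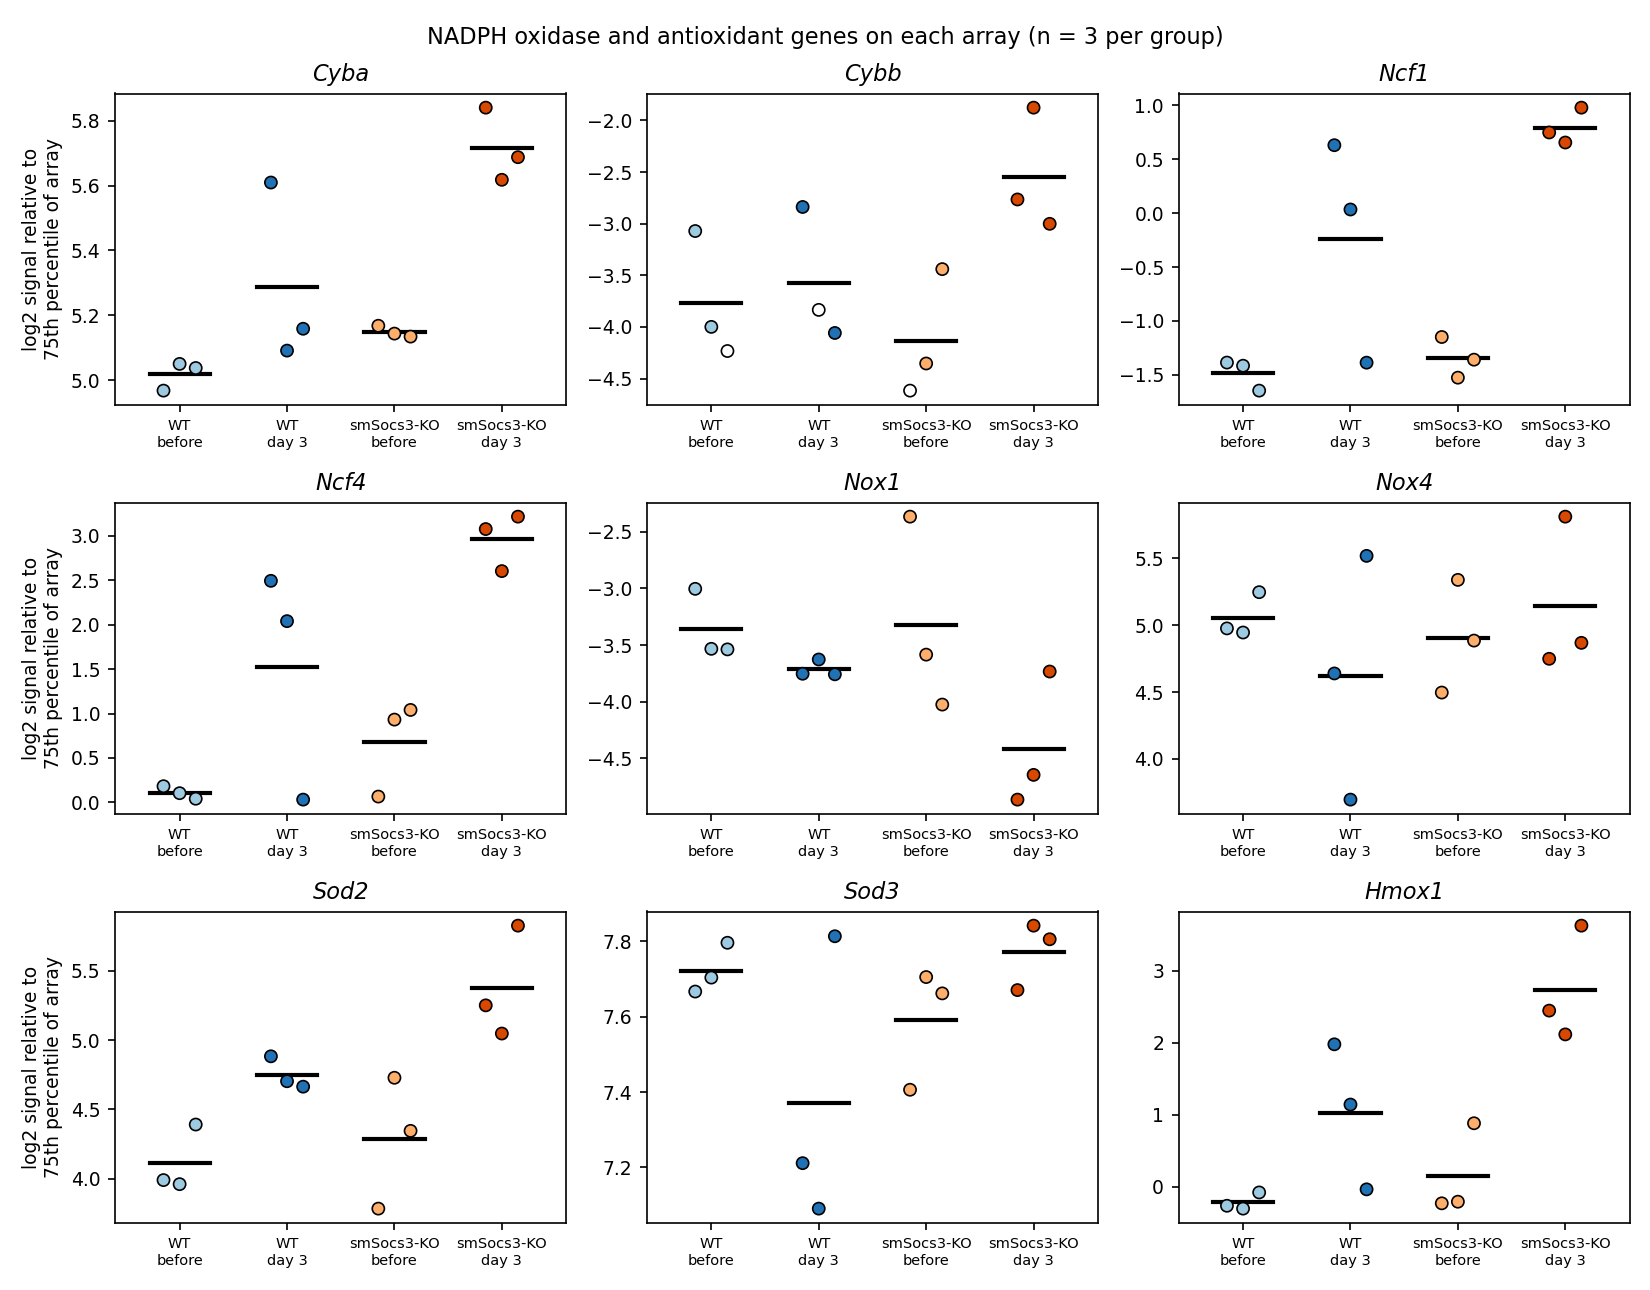
Log2 signal relative to the 75th percentile of the array (vertical axis, its own range in each panel) for the 9 genes in the 4 groups, with each array as a point and the mean of 3 arrays as a line; open points are not well above background. Ncf1, Ncf4 and Hmox1 are higher at day 3 under the smSocs3-KO label on 3 of 3 arrays, while WT replicate 4 at day 3 (right point of its group) stays at 0.03 for Ncf4 and -1.39 for Ncf1, in the range before challenge or just below it.

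The catalytic subunits of the non-phagocyte oxidases did not pass the test. Nox1 read -3.00, -3.53 and -3.54 in WT before challenge and -3.75, -3.63 and -3.76 at day 3. On the arrays labelled smSocs3-KO it read -2.37, -3.58 and -4.03 before challenge and -4.86, -4.65 and -3.73 at day 3. It was the only one of the 9 genes with a lower mean at day 3 under both labels. The mean difference was -0.72 (SE 0.28, limma adjusted p = 0.0874), with -0.35 in WT, where the groups did not overlap, and -1.09 under the smSocs3-KO label, where they did. Without replicate 4 of smSocs3-KO before challenge the mean difference was -0.90 and passed (limma adjusted p = 0.0454), the only one of 23 alternative settings in which it did. With normexp background correction it was -0.39.

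Nox4 had 3 probes, which gave responses of different size. Its brightest probe read 4.98, 4.95 and 5.25 in WT before challenge and 4.64, 3.70 and 5.52 at day 3, and 4.50, 5.34 and 4.89 under the smSocs3-KO label before challenge and 4.75, 5.81 and 4.87 at day 3. The groups overlapped, and the mean response was -0.10 (95% interval -0.77 to 0.57, limma adjusted p = 0.822), which still allows a change of either sign. The intron-crossing probe read 1.50, 1.41 and 1.55 in WT before challenge and 0.37, -0.31 and 1.51 at day 3, the last again replicate 4. Its WT difference was -0.96 (SE 0.38, limma adjusted p = 0.145), compared with -0.44 and -0.57 for the other 2 probes. Under the smSocs3-KO label the corresponding differences were -0.21, 0.24 and 0.17, and none of the 3 probes was called in any of these comparisons.

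The mitochondrial dismutase rose and the extracellular one did not pass the test. Sod2 read 3.99, 3.96 and 4.39 in WT before challenge and 4.88, 4.70 and 4.66 at day 3, without overlap and, unlike Ncf1 and Ncf4, with replicate 4 close to the other 2 arrays. For smSocs3-KO the values were 3.78, 4.73 and 4.35 before challenge and 5.25, 5.05 and 5.83 at day 3, also without overlap. The mean response was 0.86 (SE 0.19, 1.82-fold, limma adjusted p = 0.0122). The responses of 0.64 in WT and 1.09 under the smSocs3-KO label did not pass separately (limma adjusted p = 0.159 and 0.0585). Sod3 read 7.67, 7.70 and 7.80 in WT before challenge and 7.21, 7.09 and 7.81 at day 3. For smSocs3-KO they were 7.41, 7.71 and 7.66 before challenge and 7.67, 7.84 and 7.81 at day 3. Its mean response was -0.08 (95% interval -0.39 to 0.22, limma adjusted p = 0.665). Without WT replicate 4 at day 3, the WT difference of Sod3 went from -0.35 to -0.57 and passed (limma adjusted p = 0.0341). Without WT replicate 3 at day 3 it was -0.21 and did not pass. Replicate 4 was the high array here, so its omission gives no support to a fall.

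Hmox1 rose with the challenge. It read -0.26, -0.30 and -0.08 in WT before challenge and 1.98, 1.14 and -0.03 at day 3, and -0.23, -0.21 and 0.88 under the smSocs3-KO label before challenge and 2.45, 2.12 and 3.62 at day 3. As with Ncf1, 5 of 6 arrays at day 3 lay above all arrays before challenge, and WT replicate 4 did not. The mean response was 1.91 (SE 0.37, 3.76-fold, limma adjusted p = 0.00866). Hmox1 rose by 2.58 under the smSocs3-KO label (SE 0.52, 5.98-fold, limma adjusted p = 0.0379). Its WT difference was 1.24 (limma adjusted p = 0.159), or 1.77 without replicate 4 (limma adjusted p = 0.0318). Without replicate 1 at day 3 the WT difference was 0.77 and did not pass. Replicate 4 was the low array, so its omission gives no support to a rise. The second Hmox1 probe, 3350 bases upstream, read -2.62, -2.99 and -2.66 in WT before challenge and -1.42, -2.10 and -2.79 at day 3. On the smSocs3-KO arrays this probe read -2.63, -2.75 and -2.20 before challenge and -1.47, -1.22 and 0.05 at day 3. It also rose in the mean response, by 1.15 (SE 0.29, limma adjusted p = 0.0210), and its response of 1.65 under the smSocs3-KO label just missed the threshold (limma adjusted p = 0.0625).

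**Figure D2:**
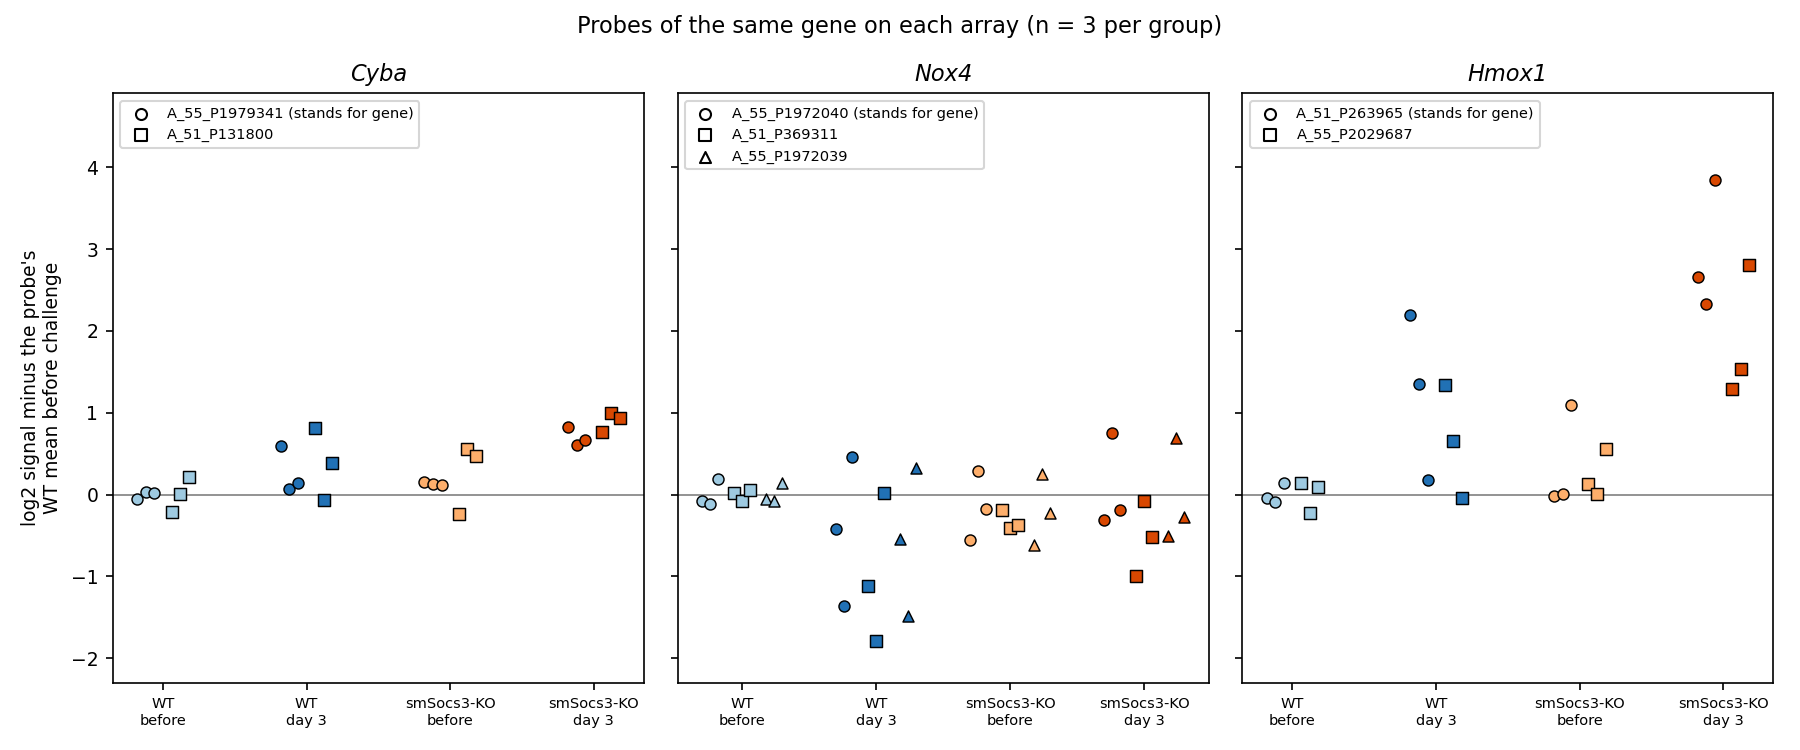
Log2 signal of each probe of Cyba, Nox4 and Hmox1 minus that probe's WT mean before challenge (vertical axis), with each array as a point, n = 3 per group, and a marker shape for each probe. The Hmox1 probe that stands for the gene shows a mean response of 1.91 and the other 1.15, while in WT at day 3 the Nox4 probes give mean differences of -0.44, -0.57 and -0.96.

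Over the 9 genes, 5 rose in the mean of both challenge responses (Cyba, Ncf1, Ncf4, Sod2 and Hmox1), none fell, and 4 did not pass. Of all genes tested, 22.7% were called in this comparison. Their median log2 change was 0.86, compared with -0.05 over all genes tested. Under the smSocs3-KO label 3 of the 9 were called (Ncf1, Ncf4 and Hmox1, all higher), against 2.45% of all genes. Leaving out any one of the 6 smSocs3-KO arrays brought the count to 0 or 1. Groups did not overlap for 6 of the 9, Cybb included, all higher at day 3, as they did not for 28.1% of all genes. In WT, limma called 0 of the 9 at the adjusted threshold, 4 had an unadjusted p under 0.05, and 4.68% of all genes were called. The WT groups did not overlap for 4 of the 9, a share near the 35.3% of all genes. Without replicate 4 at day 3, 4 of the 9 passed in WT, namely Ncf1, Ncf4, Hmox1 and Sod3. Leaving out any other single WT array gave 0 of the 9 by limma.

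An exact two-sided permutation test, which exchanged day labels within each genotype and cannot go below p = 0.005, gave that value for the mean response of Cyba, Sod2 and Hmox1. The corresponding unadjusted permutation p was 0.01 for Ncf1, 0.02 for Ncf4, 0.04 for Nox1, 0.065 for Cybb, 0.525 for Sod3 and 0.78 for Nox4. A comparison of 3 arrays with 3 cannot give an exact p below 0.1, so single pairs of groups were not tested in this way.

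**Figure D3:**
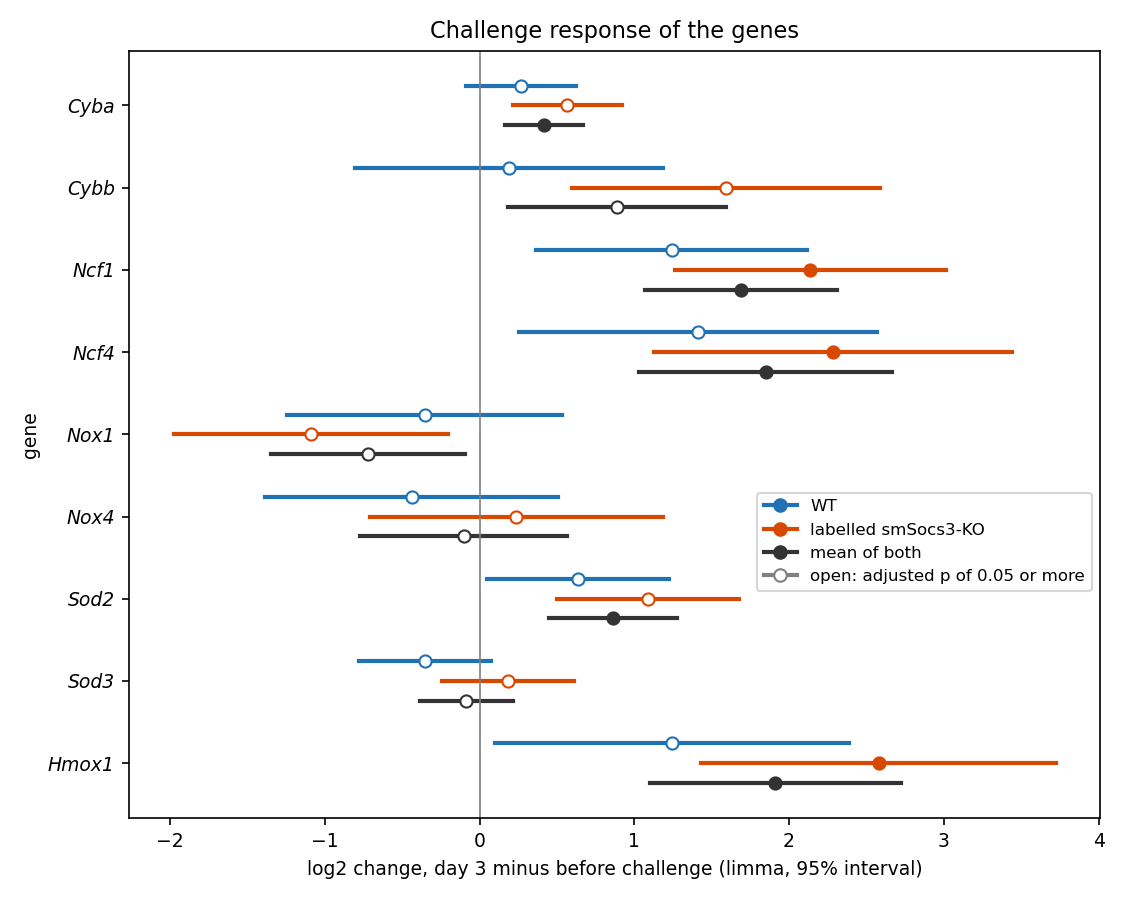
Log2 change between day 3 and before challenge (horizontal axis) for the 9 genes in WT, under the smSocs3-KO label and as the mean of both, with limma's 95% interval as a line; filled points have an adjusted p under 0.05. Filled points are found for 3 genes under the smSocs3-KO label and for 5 in the mean, and for none in WT.

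Fewer calls under the smSocs3-KO label remained within slide 2 or with the slide as a block, and the cause was not tested. Within slide 2, which held 2 arrays before challenge and all 3 at day 3, the response was 2.24 for Ncf1, 1.98 for Ncf4 and 2.39 for Hmox1, and Ncf1 alone passed (limma adjusted p = 0.0284, 0.0508 and 0.123). With the slide as a block, 0 of the 9 passed by limma under this label, while 6 had an unadjusted p under 0.05. The WT response lay within slide 1 in whole. In the mean response, the same count of 5 genes passed with the slide as a block, with changes of 0.42 for Cyba, 1.74 for Ncf1, 1.70 for Ncf4, 0.74 for Sod2 and 1.82 for Hmox1.

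Between the genotype labels, none of the 9 genes was called. Before challenge the differences, smSocs3-KO minus WT, ranged from -0.37 for Cybb to 0.57 for Ncf4, and limma called 0 of the 9 with 0 at an unadjusted p under 0.05. In this comparison 0.0264% of all genes were called. Cyba alone had groups that did not overlap, by a difference of 0.13, and such a gap was found for 11.1% of all genes. Within slide 1, where a single array of smSocs3-KO before challenge could be set against 3 of WT, the differences of Ncf4, Sod2 and Hmox1 were -0.04, -0.33 and -0.01.

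At day 3, group means were higher under the smSocs3-KO label for 8 of the 9 genes and lower for Nox1, without regard to slide. The largest differences were 1.70 for Hmox1 (95% interval 0.55 to 2.85), 1.44 for Ncf4 (0.29 to 2.60), 1.03 for Ncf1 (0.16 to 1.91) and 1.03 for Cybb (0.03 to 2.02). Limma called 0 of the 9 after adjustment, with adjusted p between 0.153 and 0.590, although 6 had an unadjusted p under 0.05, and 1.11% of all genes were called. Cybb is among these 6. It entered the test through smSocs3-KO at day 3, where it is high, so its interval and p-value give no support to a difference. The groups did not overlap for 5 of the 9 (Cyba, Ncf1, Ncf4, Sod2 and Hmox1), compared with 20.5% of all genes. Without WT replicate 4 the differences of Ncf1, Ncf4 and Hmox1 were 0.46, 0.70 and 1.17. At day 3 each genotype label had a slide of its own, and the slides are linked by smSocs3-KO before challenge alone, with 1 array on slide 1 and 2 on slide 2. With the slide as a block on this basis, the difference turned for Nox1 (0.74), Nox4 (-0.09) and Sod2 (-0.13), and it was 0.52 for Ncf4, 1.33 for Ncf1 and 1.13 for Hmox1, with 0 of the 9 called by limma and 0 at an unadjusted p under 0.05.

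No difference between the challenge responses of the genotype labels passed. The signed difference was positive for 8 of the 9 genes and negative for Nox1, and for Nox4 and Sod3 the responses under the labels had opposite signs. With the WT response subtracted from that of smSocs3-KO, the interaction was 1.40 for Cybb (95% interval -0.01 to 2.81), 1.34 for Hmox1 (-0.28 to 2.96), 0.90 for Ncf1 (-0.34 to 2.13) and 0.87 for Ncf4 (-0.76 to 2.51). The interval of Cybb gives no support to a difference, since smSocs3-KO at day 3 let this gene into the test. Limma called 0 of the 9, with 0 at an unadjusted p under 0.05, and 0% of the 22765 genes, of which 1215 had an unadjusted p under 0.05. The median over the 9 genes was 0.67, beside -0.06 over all genes tested. Leaving out WT replicate 4 at day 3 brought the interaction down to 0.32 for Ncf1, 0.13 for Ncf4 and 0.81 for Hmox1. A call in 1 genotype alone therefore does not show a different response.

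Ordered by group mean, Cyba, Ncf1, Ncf4, Sod2 and Hmox1 shared the order smSocs3-KO at day 3, WT at day 3, smSocs3-KO before challenge and WT before challenge. For these 5 genes, the gap between both groups before challenge was 0.13 to 0.57, in each case smaller than the gene's pooled SD within groups (0.15 to 0.73). For Nox4 the gaps between neighbouring groups were 0.09, 0.15 and 0.29, each below its pooled SD of 0.59.

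Of 10 macrophage markers, 8 rose in the mean response, where 22.7% of all genes were called. Limma called 0 of the 10 in WT alone and 4 under the smSocs3-KO label, against 4.68% and 2.45% of all genes. The mean log2 signal of 10 macrophage markers went from 1.36 to 1.44 in WT before challenge and from 1.40 to 2.78 at day 3, where the low array was replicate 4. With the smSocs3-KO label it lay between 1.52 and 1.77 before challenge and between 2.85 and 3.00 at day 3. Among those that rose were Adgre1, the F4/80 antigen, by 0.90 (limma adjusted p = 0.0186), Csf1r, the receptor of macrophage colony-stimulating factor, by 0.76 (limma adjusted p = 0.0122), and Cd68, a lysosomal protein of macrophages, by 1.82 (limma adjusted p = 0.00681). On the linear scale, the log2 of the summed signal of the list was 7.62 to 7.92, 7.38 to 8.17, 7.20 to 8.40 and 7.55 to 7.85 in the same groups, which overlapped. Such a sum is weighted to the brightest probes of a list.

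Of 10 neutrophil markers, 5 were not well above background in any complete group (Cxcr2, Retnlg, Ngp, Ltf and Mmp8). The mean of the other 5 was -0.14 to 0.52 and -0.02 to 1.33 in WT before challenge and at day 3, and -0.31 to 0.83 and 0.85 to 3.01 under the smSocs3-KO label. Limma called 1 of these 5 in the mean response and 1 under the smSocs3-KO label, both higher, and none in WT. Of all genes, 22.7%, 2.45% and 4.68% were called in these comparisons, so the share in the mean response was near that of all genes. In each of these comparisons 3 of the 5 were higher and 2 lower at day 3. The log2 of their summed signal, likewise weighted to the brightest probes, overlapped between the days under both labels. Ly6g, a neutrophil surface antigen, rose in the mean response by 1.23 (limma adjusted p = 0.00511). S100a8, a calcium-binding protein of neutrophils, differed by 1.78 and did not pass (limma adjusted p = 0.147). Among 8 smooth muscle markers, which were well above background on all 12 arrays, 2 fell in the mean response, near the 22.7% of all genes called. Limma called 0 of the 8 in either genotype alone. Myh11, the smooth muscle myosin heavy chain, fell by 1.09 (limma adjusted p = 0.0114), and Acta2, the smooth muscle actin, gave -0.36 (limma adjusted p = 0.0768). The mean over the 8 was 6.28 to 6.29 and 5.59 to 6.36 in WT, and 6.21 to 6.63 and 5.46 to 5.89 under the smSocs3-KO label. The mean over 5 mesothelial markers was -1.47 to 1.05 in WT and 1.50 to 3.01 in smSocs3-KO before challenge, where limma called 0 of the 5 and 4 had an unadjusted p under 0.05. The part of any of these cell types in the results of the 9 genes was not tested.

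**Figure D4:**
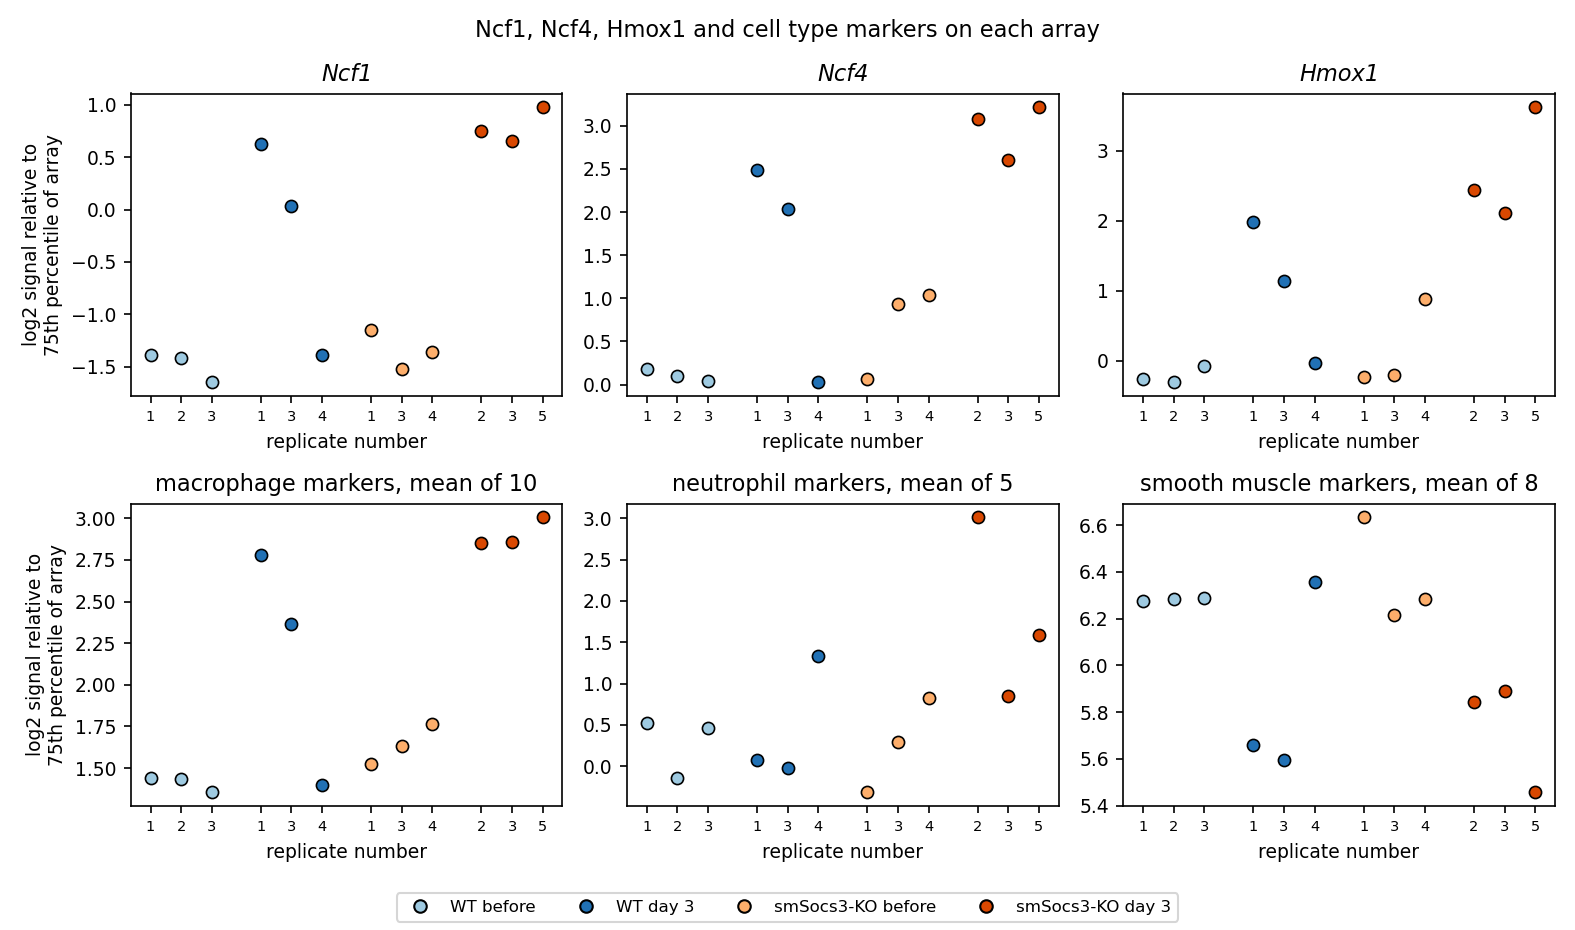
Log2 signal relative to the 75th percentile of the array (vertical axis) on each of the 12 arrays, named by replicate number (horizontal axis) and coloured by group, for Ncf1, Ncf4 and Hmox1 and for the mean over 10 macrophage, 5 neutrophil and 8 smooth muscle markers. WT replicate 4 at day 3, at 1.40 for the macrophage markers, lies with the arrays before challenge in the panels of Ncf1, Ncf4, Hmox1, macrophage and smooth muscle markers, but at 1.33 for the neutrophil markers it does not.

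The closest patterns over the 12 arrays were found by Pearson r between each of the 9 genes and all others tested. These values describe arrays that share the same group differences, and were given no p. Among the genes most like Ncf4 were Alox5ap (0.989), which serves leukotriene synthesis, and Fcgr2b (0.988), an inhibitory Fc receptor. Ncf1 was most like Nfatc2 (0.986), Inpp5d (0.980), a lipid phosphatase of blood cells, and Tspan4 (0.974). Hmox1 was most like B4galt5 (0.990), Ubtd1 (0.985) and Cd14 (0.983), the last of which is on the macrophage list. Sod2 was most like Tbc1d14 (0.981), Snx10 (0.980) and Acsl4 (0.976), and Cyba like Capzb (0.969), Gm9733 (0.968) and Slc37a2 (0.957).

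Nox4 went most closely with Nqo1 (0.963), a quinone reductase, and with Nipbl (0.950) and Tmtc1 (0.941). Sod3 went with Mtus1 (0.969), Olfr328 (0.936) and Olfr330 (0.935), the last 2 being olfactory receptor genes, Nox1 with Lrrfip2 (0.948), Ylpm1 (0.943) and Rprd1b (0.934), and Cybb, the dimmest in relation to background, with Esrra (0.857), Impg2 (0.856) and Isg15 (0.850). Among the 9 genes, r was 0.955 for Ncf1 with Ncf4, 0.954 for Hmox1 with Ncf4 and 0.937 for Hmox1 with Ncf1. Cybb, the partner of Ncf1 in the oxidase, had an r of 0.741 with it. Nox4 and Sod3 formed another pair with 0.850, and Nox4 had an r between -0.30 and 0.22 with each of the others.

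Upstream sequences of 6 of the 9 genes were in the table of RefSeq promoters (GRCm38.p6), and 3 of these belong to genes that rose in the mean response. The 250 bases before the start site of Cyba, Ncf1 and Sod2 are printed because these genes moved together, with the letters GAGGAA, the core of the site for the myeloid factor PU.1, in capitals where they occur on either strand.
Cyba, chr8:122432941-122433190, minus strand: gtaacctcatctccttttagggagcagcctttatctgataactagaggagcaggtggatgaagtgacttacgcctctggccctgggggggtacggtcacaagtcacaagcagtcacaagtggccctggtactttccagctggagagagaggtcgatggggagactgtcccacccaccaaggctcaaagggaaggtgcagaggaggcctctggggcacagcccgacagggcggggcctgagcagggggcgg
Ncf1, chr5:134229626-134229875, minus strand: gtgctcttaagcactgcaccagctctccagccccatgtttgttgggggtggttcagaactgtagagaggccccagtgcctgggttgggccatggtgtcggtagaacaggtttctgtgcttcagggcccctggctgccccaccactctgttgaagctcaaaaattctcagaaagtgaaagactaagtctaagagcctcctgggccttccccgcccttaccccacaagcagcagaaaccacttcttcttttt
Sod2, chr17:13007589-13007838, plus strand: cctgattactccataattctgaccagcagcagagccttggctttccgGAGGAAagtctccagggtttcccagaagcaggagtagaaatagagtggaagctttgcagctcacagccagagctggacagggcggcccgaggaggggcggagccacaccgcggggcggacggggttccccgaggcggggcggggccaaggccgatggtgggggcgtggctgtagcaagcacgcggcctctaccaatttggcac
Searched on both strands over 250 bases before and 50 after the start site, GAGGAA was found in 3 of the 6 genes (Cybb, Nox1 and Sod2), and in 28.3% of all 32851 promoters of the same length. TGANTCA, a loose form of the AP-1 site with any base at its centre, was found in 7.81% of all promoters. Of the 6 genes, Cybb held it, as TGAATCA at position -139 from the start site. TGACNNNGC, the core of the antioxidant response element, was in none of the 6 and in 12.4% of all, and each of 2 forms of the NF-kB site was in none of the 6 and in 0.155% or 0.088% of all. TGANTCA and TGACNNNGC overlap in their letters and can match from the same base. A match describes letters in this window and no more.

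Other genes of oxidant production and removal were taken from 5 lists of 58 genes, of which 54 were tested. In the mean response 21 of the 54 rose and 3 fell, where 22.7% of all genes were called. In WT 5 rose (4.68% of all genes were called), under the smSocs3-KO label 3 rose (2.45%), and between labels limma called 0 before challenge (3 at an unadjusted p under 0.05) and 4, all higher, at day 3 (1.11%). The interaction gave 0 calls by limma among the 54, with 6 at an unadjusted p under 0.05. Of the 5 calls in WT, limma gave 0 without any single one of 5 of the 6 WT arrays, and 13 without replicate 4 at day 3. Mpo, described below, is counted among the 21 and among the 5. It entered the test through WT at day 3, where it was high, so it adds no support to these counts.

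Among 9 further subunits and partners of the oxidases, 3 rose and 2 fell in the mean response. Rac2, the GTPase of leukocytes, read -0.94, -0.58 and -1.02 in WT before challenge and 1.18, 0.70 and -0.89 at day 3. Its smSocs3-KO values were -0.66, -0.03 and 0.02 before challenge and 1.61, 0.97 and 1.24 at day 3. WT replicate 4 was the lowest array at day 3. Rac2 rose by 1.34 (SE 0.31, limma adjusted p = 0.0157), and Rac1, the form found in most cells, by 0.57 (limma adjusted p = 0.0189). Noxo1 and Noxa1, the organiser and activator that work with Nox1, fell by 1.33 (limma adjusted p = 0.0257) and 0.58 (limma adjusted p = 0.0357), and the Noxa1 probe was well above background on 1 of 3 WT arrays at day 3. Nox3, Duox2 and Duoxa2 were not well above background in any complete group.

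Of 15 further genes of superoxide or peroxide removal, 7 rose and none fell in the mean response. Gpx7 and Gpx8, glutathione peroxidase homologues of the endoplasmic reticulum, rose by 0.98 (limma adjusted p = 0.00779) and 0.79 (limma adjusted p = 0.0235), and in WT alone by 1.38 and 1.26 (limma adjusted p = 0.0324 and 0.0418). Prdx5, a peroxiredoxin, rose by 0.81 in the mean and by 0.97 in WT (limma adjusted p = 0.00691 and 0.0334). For Sod1, the cytosolic dismutase, the mean response was -0.05 (SE 0.11, limma adjusted p = 0.749), and for Cat, the catalase of peroxisomes, -0.35 (SE 0.39, limma adjusted p = 0.524). Gpx3, the secreted glutathione peroxidase, was higher by 1.30 under the smSocs3-KO label at day 3 (SE 0.20, limma adjusted p = 0.0179).

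Of 13 tested genes of the glutathione and thioredoxin systems, 3 rose in the mean response, a share near the 22.7% of all genes. They were G6pdx, which supplies NADPH (0.69, limma adjusted p = 0.00795), Txnrd1, thioredoxin reductase (0.68, limma adjusted p = 0.0163), and Txn1, thioredoxin (0.62, limma adjusted p = 0.0158). G6pdx also rose under the smSocs3-KO label, by 0.86 (limma adjusted p = 0.0397). Slc7a11, the cystine transporter, was not well above background in any complete group.

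Of 12 genes around heme, iron, metal binding and the transcription factor Nrf2, 6 rose and 1 fell in the mean response. In this comparison 22.7% of all genes were called. The metallothionein Mt2 read 4.87, 4.82 and 5.27 in WT before challenge and 5.99, 6.87 and 5.89 at day 3. In smSocs3-KO it read 6.48, 6.42 and 6.43 before challenge and 8.84, 8.77 and 9.08 at day 3, so that every array of this label lay above all WT arrays of the same day. It rose in WT by 1.26 and under the smSocs3-KO label by 2.45, and at day 3 the labels differed by 2.65 (limma adjusted p = 0.0329, 0.00439 and 0.00242). Mt1 rose under the smSocs3-KO label by 1.83 and was higher there by 2.40 at day 3 (limma adjusted p = 0.00439 and 0.000677). With the slide as a block, 0 of the 54 genes passed between labels at day 3 by limma, while 8 had an unadjusted p under 0.05. Blvrb, a biliverdin reductase downstream of Hmox1, rose by 0.59 and Ftl1, the ferritin light chain, by 0.59 (limma adjusted p = 0.0110 and 0.0131), whereas Slc40a1, the iron exporter ferroportin, fell by 0.63 (limma adjusted p = 0.0309).

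Of 5 other genes with a bearing on oxidants, 2 were called higher in the mean response, namely Mpo and Ucp2. Mpo, the myeloperoxidase of neutrophils, was not well above background on any WT array before challenge and was at least 2.11-fold higher on the 3 WT arrays at day 3. It entered the test through this group alone, so its calls in WT and in the mean response give no support to a rise. This bound sets the mean at day 3 against the lowest signal well above background on each array before challenge. Ucp2, a mitochondrial carrier, rose by 0.94 (limma adjusted p = 0.0397). Xdh, xanthine oxidoreductase, was higher by 2.21 under the smSocs3-KO label at day 3 (SE 0.41, limma adjusted p = 0.0331).

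**Figure D5:**
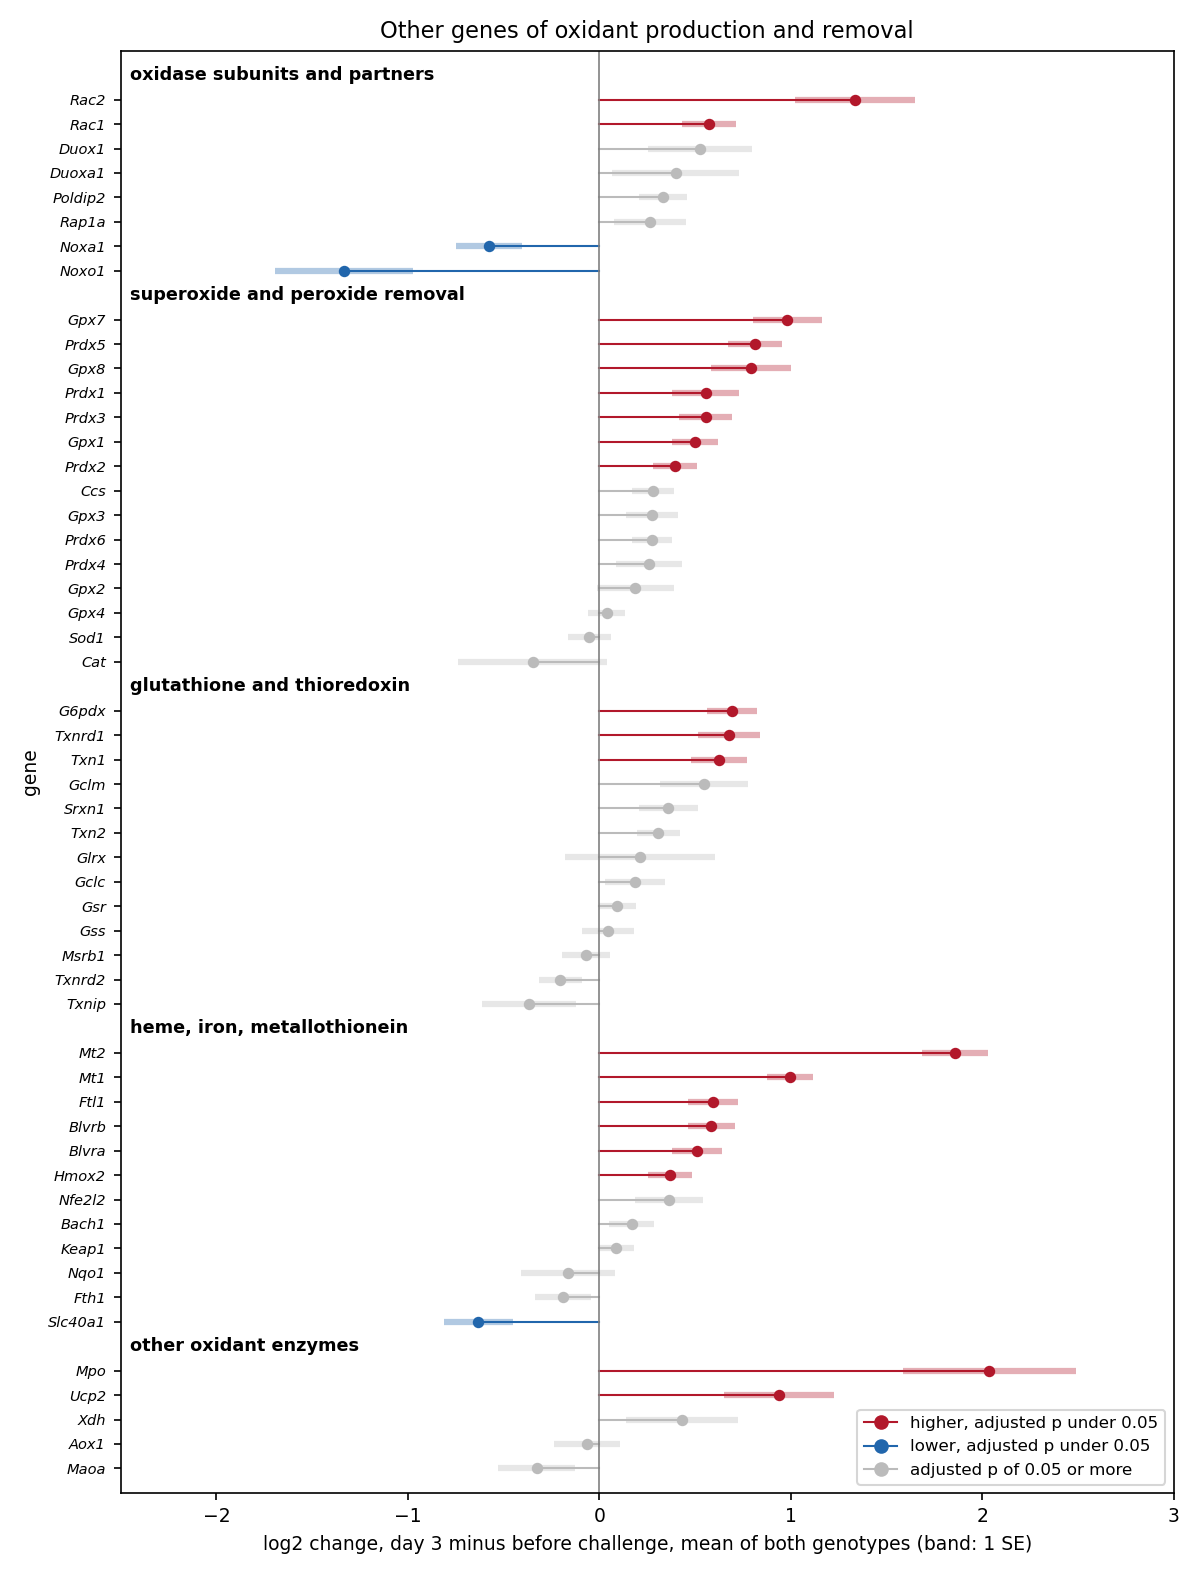
Log2 change from before challenge to day 3, averaged over both genotypes (horizontal axis, 12 arrays), for 53 genes of the 5 lists, with a band of 1 SE and red or blue where the limma adjusted p is under 0.05. Red lines (20 genes) are found in all 5 lists, and the 3 blue ones are Noxo1, Noxa1 and Slc40a1. Mpo, among the red ones, entered the test through WT at day 3 alone.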

How the data were processed

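The authors deposited scanner output of 12 one-colour arrays. Its processed signal, a linear intensity, came from Feature Extraction (spot analysis 10.7.1.1 per the file headers, 9.5.1.1 in the submitters' processing notes), with spatial and multiplicative detrending switched on. A spot is well above background there when it exceeds it by 13 background SDs. The authors also deposited a table of quantile normalized intensity, used as an alternative.

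Control and outlier spots were removed, log2 signals were averaged per probe, and each array's 75th percentile was subtracted, which assumes that this percentile stays alike between arrays. A probe was kept if every array of some group measured it well above background (32287 of 55681), and the brightest kept probe stood for a gene. A model of 4 group means was fitted with limma 3.58.1 (R 4.3.3) over 22765 genes, called at a Benjamini-Hochberg adjusted p under 0.05, and tested on simulated data. Values of further probes of a gene came from the same model fitted over the 32287 kept probes. In that fit the smSocs3-KO response of Ncf4 did not pass (limma adjusted p = 0.0505). No spot was saturated, and 3 arrays per group limit the precision.

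The members and lists were chosen with earlier results of these data known. Named were all 9 members with every probe, the 20 called list genes with the largest change, Rac2, Sod1 and Cat, the 3 closest patterns per member, Socs3 and set markers, of which Cd68 was added after its values were seen. Further marker lists are given among the other observations. Alternatives covered background correction, normalization, the filter, the probe rule, moderation, slide, replicate number, arrays in the fit and the omission of each array. The count of list genes was run under them after the data had been seen. Single genes that the rule would also name are not reported here.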

Additional observations from a re-analysis of the deposited data

How the results depend on the processing

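Over alternative settings other than the omission of an array, 637 of 651 log2 differences of the 9 genes kept their direction, 25 calls were lost and 6 gained. With an array left out it was 420 of 432, with 20 lost and 7 gained. No called value turned. Limma called 0 genes of the 9 in the genotype difference before challenge, at day 3 and in the interaction under every setting run.

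In the smSocs3-KO response, where 3 of the 9 were called, 0 were called by limma without a filter on dim probes (7 at an unadjusted p under 0.05), without moderation (7) and with the slide as a block (6), 1 within slide 2 and 5 with a trended, robust prior. With an array left out, between 0 and 1 were called. In WT the count was 0, and 0 to 4 with an array left out. In the mean response it was 5, and 4 to 7 with an array left out. The cause of these moves was not tested, except that the omission of an array leaves fewer samples and the absence of a filter more genes (34797). Ncf1 was called in the mean response under all 23 alternatives, Ncf4, Sod2 and Hmox1 under 22 each, and Cyba under 14.

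Reversals were found only in differences that were not called. With normexp background correction, the WT response of Cybb was -0.0290 and the difference of Nox1 before challenge -0.0463, and with quantile normalization added the WT response of Cyba was -0.0044. Blocking on slide gave differences before challenge of -0.0434 for Ncf4, -0.329 for Sod2 and -0.0146 for Hmox1, the same as within slide 1, and differences at day 3 of 0.737 for Nox1, -0.0906 for Nox4 and -0.128 for Sod2. With an array left out, the WT response ranged from -0.18 to 0.54 for Cybb and from -0.89 to 0.0227 for Nox4. For Nox4 the mean response ranged from -0.33 to 0.13 and the smSocs3-KO response from -0.10 to 0.45. The difference before challenge ranged from -0.45 to 0.38 for Nox1, from -0.37 to 0.0558 for Nox4, from -0.0491 to 0.42 for Sod2 and from -0.0033 to 0.55 for Hmox1.

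A pairing of the arrays by replicate number was not shown. The deviations of arrays with the same number from their group means correlated between -0.40 and 0.46 in 11 pairs, compared with -0.43 to 0.48 in 43 pairs with different numbers. With the replicate number as a replicate block, 0 of the 9 genes were called in the smSocs3-KO response (4 at an unadjusted p under 0.05) and 1 in the mean response, the WT response of Cybb was -0.10 and the interaction of Ncf4 -0.000203. Over all genes, this block left 0 calls of 1065 in WT and 894 of 5179 in the mean response.

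Of all genes, 1065 were called in WT and 557 in the smSocs3-KO response. In WT the count was 10 without the filter, 614 to 615 with quantile normalization or the authors' table, 610 without moderation, 1844 with the trended, robust prior, 2368 with slide blocked and 0 with only the arrays compared (6526 at an unadjusted p under 0.05). In the smSocs3-KO response it was 173 without the filter, 30 without moderation, 52 with the slide as a block and 67 within slide 2. At day 3 between labels, 253 genes fell to 90, 37 and 0 under the first 3 of these (3641 at an unadjusted p under 0.05 with the block). Signal over background limits Cybb and Nox1.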

Other observations

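Other cell type markers were read on the same arrays. In the mean response, 1 of 6 endothelial and 1 of 6 fibroblast markers rose, 1 of 5 tested lymphocyte markers fell, and limma called 0 of 5 adipocyte, 0 of 3 red cell and 0 of 2 tested adrenal markers (1 adrenal marker and none of the others had an unadjusted p under 0.05). Over all genes 22.7% were called, so these shares lie at or below the background. At day 3, 2 of 6 fibroblast markers were higher under the smSocs3-KO label, where 1.11% of all genes were called. None of the other lists named here had a call between labels at day 3. Each label had a slide of its own at day 3, and these calls were made without regard to slide. Averaged over the endothelial markers, log2 signal was 1.20 to 1.78 over the 6 arrays before challenge and 1.90 to 2.17 over the 6 at day 3, which did not overlap. That of the lymphocyte markers was -1.22 to -0.86 before challenge and -2.14 to -0.89 at day 3.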
